A study of Mus musculus with 5 samples.

Results

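The genes of the CD3 complex, Cd3g, Cd3d, Cd3e and Cd247, were followed over 5 sorted thymocyte populations of the mouse. All probe sets that the platform's annotation assigns to these 4 genes were taken, which gave 6 probe sets of 12488 on the array and 4 genes of 8251. Each population was hybridised to 1 Affymetrix array, so no replicate error, standard error or p-value exists, and every fold below sets 1 array against another. Cells came from male C57BL6 mice aged 5 weeks, and thymuses of 10 mice were used; whether their RNA was pooled is not stated. DN1 was sorted as lin- CD24+ CD25- CD44hi, DN2 as lin- CD24+ CD25+ CD44hi, DN3 as lin- CD24+ CD25+ CD44lo and the pre-double positive population (preDP) as lin- CD24+ CD25- CD44lo. These 4 were taken from blast enriched thymocytes, that is, thymocytes enriched for large cells. The double positive population (DP) was sorted as CD4+8+ from total thymocytes, so for DP the stage and the source of the cells cannot be told apart. The sources used here do not give the antibodies behind "lin-", so whether CD3 itself was part of that gate is unknown.

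CD3 is the signalling part of the T-cell receptor. The gamma and delta chains each pair with an epsilon chain, while Cd247 encodes the zeta chain, which forms a dimer of its own and joins the complex last. All these chains carry ITAMs, short tyrosine motifs that are phosphorylated by Lck and Fyn and then bind the kinases Zap70 and Syk. In the thymus the chains first serve the pre-T-cell receptor, in which the product of Ptcra stands in for the alpha chain while cells pass from DN3 onwards, and later the mature receptor of DP cells. The gamma-delta receptor of another thymocyte lineage uses CD3 chains as well.

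Cd3g, Cd3d and Cd3e lie side by side on mouse chromosome 9, and Cd247 lies on chromosome 1. In RefSeq's annotation of GRCm38.p6, Cd3g and Cd3d start head to head with 1355 bases between their starts, and the start of Cd3e is 27825 bases from that of Cd3d. The 250 bases before each start are shown because 3 genes that share 1 short stretch of chromosome had different time courses on these arrays. They span chr9:44980432-44980681 on the minus strand for Cd3g, chr9:44981536-44981785 on the plus strand for Cd3d, chr9:45009612-45009861 on the minus strand for Cd3e and chr1:165788431-165788680 on the plus strand for Cd247. Capitals mark the letters CANNTG, the E-box that E proteins such as those of Tcf3 and Tcf12 can bind, and each sequence is written 5′ to 3′ along its gene.
Cd3g: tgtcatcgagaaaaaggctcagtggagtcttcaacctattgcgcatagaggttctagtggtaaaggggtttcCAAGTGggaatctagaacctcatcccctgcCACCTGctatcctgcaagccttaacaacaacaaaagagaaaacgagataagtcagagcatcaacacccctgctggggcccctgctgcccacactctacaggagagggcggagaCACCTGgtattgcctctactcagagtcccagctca
Cd3d: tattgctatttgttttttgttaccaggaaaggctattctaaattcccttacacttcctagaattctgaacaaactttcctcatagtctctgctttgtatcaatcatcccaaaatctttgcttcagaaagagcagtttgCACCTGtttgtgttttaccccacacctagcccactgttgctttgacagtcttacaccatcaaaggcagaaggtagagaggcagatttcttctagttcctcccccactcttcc
Cd3e: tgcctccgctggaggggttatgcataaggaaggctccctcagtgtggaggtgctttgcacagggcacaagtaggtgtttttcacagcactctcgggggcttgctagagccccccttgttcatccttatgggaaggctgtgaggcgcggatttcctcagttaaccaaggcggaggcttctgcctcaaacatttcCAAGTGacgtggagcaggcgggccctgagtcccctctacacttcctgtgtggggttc
Cd247: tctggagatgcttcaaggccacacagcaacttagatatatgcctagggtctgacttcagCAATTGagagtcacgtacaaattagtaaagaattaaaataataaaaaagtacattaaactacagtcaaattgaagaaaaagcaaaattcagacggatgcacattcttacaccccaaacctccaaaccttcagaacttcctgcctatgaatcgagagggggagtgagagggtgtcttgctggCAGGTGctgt
CANNTG, which reads alike on both strands, occurred 3 times before Cd3g, once before Cd3d, once before Cd3e and 2 times before Cd247, and 66.2% of the 32851 RefSeq windows of this length hold at least 1. Its form CAGGTG, searched on both strands and counted in CANNTG too, occurred 2 times before Cd3g, once each before Cd3d and Cd247 and not before Cd3e, against 17.2% of windows with a match. GGAA, the core of Ets factor sites, was searched on both strands and matched 2 times for Cd3g, 6 times for Cd3d, 5 times for Cd3e and 1 time for Cd247, and 93.4% of windows hold it. GATAA was found before Cd3g alone of the 4 (22.6% of windows), and TATAAA, the TATA box, before none (12.4% of windows). TGTGGT, the core of Runx sites, was before none either (14.0% of windows). These matches describe letters in the windows and were not set against binding data.

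The values are MAS5 signals, on a linear scale and scaled by the authors so that the mean without the outer 2% of signals at either end lay between 500.3 and 500.4 for all arrays. A floor of 130.4, the median of all values of probe sets with 1 gene symbol, was used below which a signal was treated as not measured. The spread between probe sets of the same gene served as a yardstick of error. It is the SD, over genes, of the difference in log2 ratio between a gene's 2 brightest probe sets, and lay between 0.43 and 0.59 for the 4 consecutive comparisons. It leaves out error shared by a whole array and variation between sorts or mice. The gates could be checked in part. Il2ra, which encodes CD25, was above the floor in DN2 and DN3 alone, Cd4 reached 5096 in DP, and Cd24a was between 6849 and 14356 throughout, whereas Cd44 was under the floor on every array and checks nothing. From DN1 to DP, Cd8a read 755, 10.7, 73.0, 2031 and 20020, and Cd8b1 342, 19.4, 319, 6242 and 28020. Kit read 1166, 1347, 254, 123 and 36.8. The labels name neither CD8 nor Kit in the gates of DN1 to preDP. In bulk samples, fewer cells of a type and less RNA per cell cannot be told apart.

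Of the 6 CD3 probe sets, 4 were above the floor on all 5 arrays, 1 for each gene, as were 4000 of all 8251 genes. The second probe set of Cd3d was between 0.33 and 11.9 and that of Cd247 between 5.34 and 36.9, so both were under the floor everywhere and give no second reading of those genes. Cd3g and Cd3e have 1 probe set each. No chain therefore had an independent second measurement.

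Cd3g, which encodes the gamma chain, had the largest share of its own maximum in DN2 among the 4 chains, at 39.8%. From DN1 to DP its signal read 582, 6301, 15850, 6179 and 11294. As a share of the DN3 value these are 3.67%, 39.8%, 100%, 39.0% and 71.3%. DN1 stands apart as low, and DN3 is the highest array. The levels in DN2 and preDP were 1.02-fold apart, and those in DN3 and DP 1.40-fold (log2 0.49), both within the probe set SD for these arrays (0.50 and 0.56). The other neighbours in the order of levels, DP over DN2 by 1.79-fold and preDP over DN1 by 10.6-fold, were apart by more than that SD.

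Cd3d, which encodes the delta chain, was close to its lowest level until DN3. Over the 5 arrays, in the same order, its signal read 335, 234, 5740, 3181 and 6493. These are 5.15%, 3.60%, 88.4%, 49.0% and 100% of the DP value. DN1 and DN2 are the low arrays, and they differed by 1.43-fold (log2 0.52), within the probe set SD of 0.53. DP and DN3 were 1.13-fold apart, also within the spread, while preDP lay 1.80-fold under DN3 and 9.51-fold over DN1.

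Cd3e, which encodes the epsilon chain shared by the gamma-epsilon and delta-epsilon pairs, had a course between these. The signals, again from DN1 to DP, were 558, 1648, 7264, 3644 and 8547. These are 6.53%, 19.3%, 85.0%, 42.6% and 100% of the DP value. Only the 2 highest arrays, DP and DN3, were within the spread of each other, at 1.18-fold. In the rest of the order, DN3 exceeded preDP by 1.99-fold, preDP exceeded DN2 by 2.21-fold and DN2 exceeded DN1 by 2.95-fold, each more than the probe set SD.

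Cd247, the zeta chain gene, had smaller differences between successive stages up to preDP and its highest signal in DP. The first 4 arrays gave 222, 439, 773 and 828 from DN1 to preDP, and DP gave 3029. These are 7.32%, 14.5%, 25.5%, 27.3% and 100% of the DP value. DP is the one high array, 3.66-fold over preDP, the next in order. DN3 and preDP were 1.07-fold apart, within the spread. DN3 over DN2 at 1.76-fold and DN2 over DN1 at 1.98-fold were larger than the probe set SD.

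**Figure D1:**
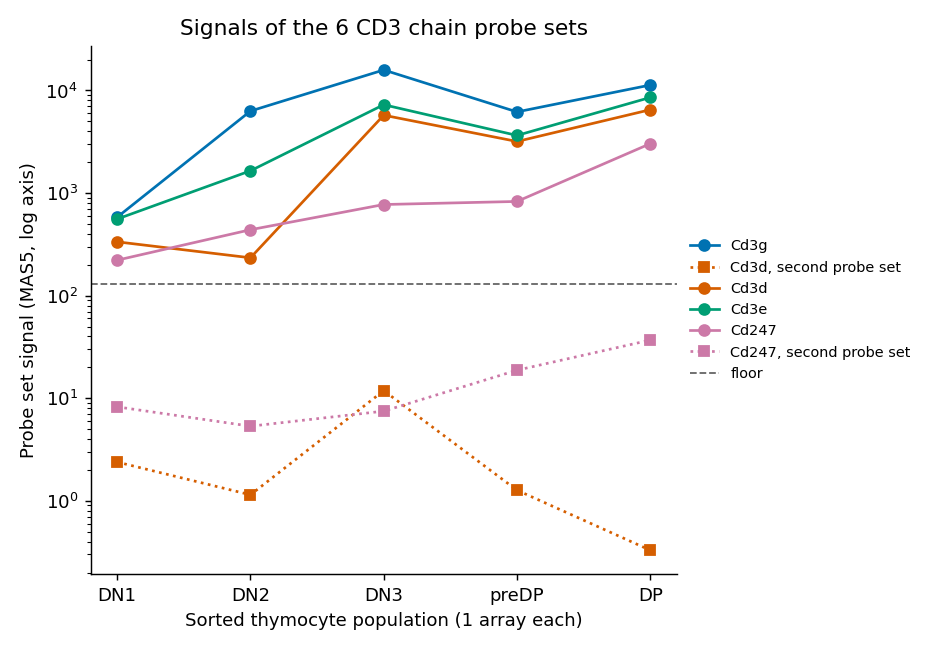
MAS5 signal (log axis) of the 6 probe sets of Cd3g, Cd3d, Cd3e and Cd247 in the 5 sorted populations, 1 array each; the dashed line is the floor of 130.4. Solid lines are the probe sets used for each gene and dotted lines the second probe sets of Cd3d and Cd247, which stayed under the floor; heights of different probe sets cannot be compared, only the course of each.

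The order in which the chains appeared depended on what counts as appearing, and was read within each chain only. By the first array above the floor all 4 chains came in DN1. This separates them little from other genes, since 4935 of all 8251 genes were above the floor there. By the first consecutive step of at least 2-fold, Cd3g and Cd3e came in DN2, Cd3d in DN3 and Cd247 in DP. By the first array at or above 50% of the chain's own highest signal, Cd3g, Cd3d and Cd3e came in DN3 and Cd247 in DP. At 25% in place of 50%, Cd3g came in DN2, Cd3d, Cd3e and Cd247 in DN3; at 75% the populations were those found at 50%. Cd247 in DN2 was just short of 2-fold, at 1.98. Its first 2-fold step was DN2 under quantile normalisation, with an equal median and when scaled to the spiked hybridisation controls. These controls, read by 9 probe sets, were added to each array's mix and do not measure mRNA per cell. With DP left out, a choice made after seeing the data, Cd247 reached 50% of its highest signal in DN2.

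**Figure D2:**
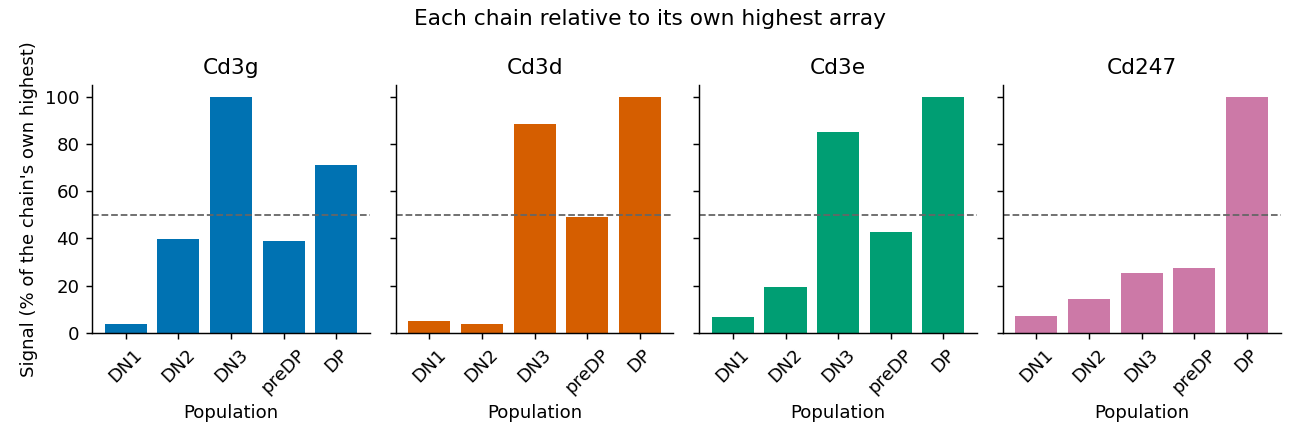
Signal of each chain in each population as a percentage of that chain's highest array (bars, 1 array each, 1 panel per chain); the dashed line marks 50%. Cd3g is at 39.8% in DN2 where Cd3d is at 3.60%, all of Cd3g, Cd3d and Cd3e are lower in preDP than in DN3, and Cd247 is at 27.3% or less before DP.

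The comparison of DN2 with DN1 asks which chains distinguish the first CD25+ stage. Cd3g was 10.8-fold higher in DN2 (log2 ratio 3.44, or 6.49 times the probe set SD of 0.53), the rank 4 ratio of 5154 genes measured on either array. Cd3e was 2.95-fold higher (log2 1.56, rank 39). Cd247 was 1.98-fold higher (log2 0.99), and Cd3d 1.43-fold lower (log2 -0.52). By a size of at least 2-fold, 2 of 4 chains had more signal in DN2 and no chain less, where 4.75% of all genes were higher and 8.56% lower. Of the genes called in this comparison 35.7% were higher, and 62.7% were when arrays were scaled to an equal median, with 3 of 4 chains higher because Cd247 then had a log2 ratio of 1.25. Scaled to the spiked controls, which had a mean log2 ratio of -0.18 here, 54.8% were higher and Cd247 had 1.17. The chains' median log2 ratio was 1.27, against 0.13 over all genes measured.

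DN1 held much signal of genes listed as markers of other cell types, a limit on how folds against it can be read. Other cells in the sort and expression in DN1 cells themselves cannot be told apart here. Summed signal of 17 myeloid marker genes was 130932 in DN1 and between 850 and 3116 on the other arrays, with 15 of 17 above the floor in DN1 and 2 to 6 elsewhere. For 13 dendritic cell markers it was 151653 against 3179 to 5844, and for 13 B-lineage markers 61729 against 5077 to 10348. A few genes carried most of these 2 sums in DN1. They were Cd74 (45515), H2-Aa (28335), H2-Eb1 (28070) and H2-Ab1 (19185) in the first list and Ighm (52870) in the second. By count, 11 of 13 and 7 of 11 measured were at least 2-fold lower in DN2 than in DN1, against 8.56% of all genes. Of 11 markers of mature T cells measured, 4 were at least 2-fold lower in DN2 than in DN1 and 1 higher. The shares of all genes were 8.56% and 4.75%. The lower ones were Cd52 (10041 and 1403), Itgb7 (4116 and 1176), Ccl5 (1678 and 607) and Ccr7 (485 and 81.7). Genes of this list are not confined to mature T cells, and which cells gave their signals was not tested. From other lists, Cd8a was 755 in DN1 and 10.7 in DN2, Cd2 was 451 and 22.0, and Trav9d-3, a variable segment of the alpha locus, 1087 and 273. Other T-cell genes were higher in DN2, among them Trbv13-2, Trgv1, Trgv4, Thy1 (1517 and 9968) and Il7r, the interleukin 7 receptor gene (304 and 1538). These genes were named after their values were seen. Of 15 natural killer and innate lymphoid markers, 6 were above the floor in DN1 and 2 in DN2, with summed signals of 5907 and 1081. Within these sums, Id2 alone gave 4370 in DN1 and 287 in DN2. Among all 8251 genes, 4935 were above the floor in DN1 and 4684 in DN2. Of this list Klrd1 (338), Klrk1 (173) and Il18r1 (158) passed the floor in DN1 alone, and Ncr1, Klra3, Klra7, Klrc1, Prf1, Gzmb, Eomes, Il2rb and Fcgr3 were under it on all 5 arrays. The summed signal of 15 mature T-cell markers was 22983 in DN1 and 9611 in DN2, and that of 8 erythroid markers 1757 and 1475. The part of any other cells in the chains' DN1 signals was not tested.

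**Figure D3:**
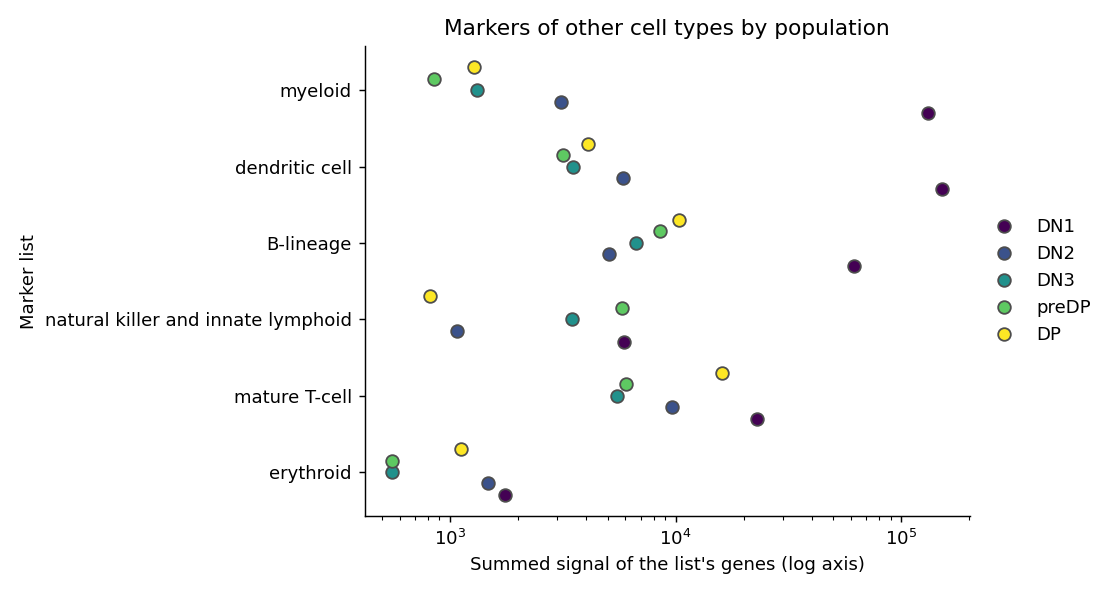
Summed signal (log axis) of the genes of 6 marker lists in each population, 1 array per point. DN1 lies far to the right of the other 4 arrays for myeloid, dendritic cell and B-lineage markers, at 130932, 151653 and 61729.

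DN3 is the stage of beta chain selection, at which the pre-T-cell receptor first needs the complex, and all 4 chains had more signal there than in DN2. Cd3d was 24.5-fold higher (log2 4.62, or 10.4 times the probe set SD of 0.44), the rank 2 ratio of 4894 genes. Cd3e was 4.41-fold higher (log2 2.14, rank 15) and Cd3g 2.52-fold higher (log2 1.33, rank 46). Cd247 was 1.76-fold higher (log2 0.82, 1.85 times the SD). Thus 3 of 4 chains were at least 2-fold higher, where 2.02% of all genes were and 3.94% were lower, and the chains' median log2 ratio was 1.74 against 0.00 for all genes. The spiked controls had a mean log2 ratio of 0.23, the same direction. Scaled to them, Cd3d had 4.39, Cd3e 1.91, Cd3g 1.10 and Cd247 0.59, and 17.2% of the genes called were higher in place of 33.9%.

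In preDP, the CD25- stage after DN3, the 3 genes of the chromosome 9 cluster had less signal than in DN3 and Cd247 did not. Cd3g was 2.56-fold lower (log2 -1.36, or 3.14 times the probe set SD of 0.43) with rank 52 from the lowest of 4825 genes. Cd3e was 1.99-fold lower (2.30 times the SD, rank 120 from the lowest) and Cd3d 1.80-fold lower (log2 -0.85, rank 175). Cd247 had a log2 ratio of 0.10. By the 2-fold size 1 of 4 chains was lower and none higher, where 2.42% of all genes were lower and 1.14% higher. The median over the chains was -0.92, against 0.01 over all genes. The spiked controls had a mean log2 ratio of -0.39 in this comparison, again the direction of the 3 cluster genes. Scaled to them, Cd3g was 1.96-fold lower (log2 -0.97), Cd3e 1.52-fold (log2 -0.61) and Cd3d 1.38-fold (log2 -0.46), so no chain was 2-fold lower, and Cd247 had a log2 ratio of 0.49. The median of all genes was then 0.38, and 84.8% of the genes called were higher in place of 32.0%. With an equal median over probe sets above the floor, Cd3e also passed 2-fold (log2 -1.02) and 2 of 4 chains were lower. The ratio of 3′ to 5′ signal of Gapdh, which is higher when RNA is less intact, was lowest in preDP at 1.39, against 1.70 to 2.04 on the other arrays. That of actin was 2.79 in preDP, 2.83 in DP and between 3.06 and 3.31 elsewhere. The natural killer and innate lymphoid list summed to 5764 in preDP and 3465 in DN3, of which Gzma, a granzyme gene, made up 5036 and 2902, and the other 14 genes 728 and 563. Of 9 genes measured from the mature T-cell list, which are not confined to such cells, 3 were at least 2-fold higher in preDP and 2 lower. Their median log2 ratio was 0.89, against 0.01 over all genes, and the list had summed signals of 6035 and 5495. The part of any of these in the lower signals was not tested. Under quantile normalisation the log2 ratio of Cd3g was -1.33, that of Cd3e -0.97 and that of Cd3d -0.89.

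DP had more signal of every chain than preDP. Cd247 was 3.66-fold higher (log2 1.87, or 3.17 times the probe set SD of 0.59), rank 125 of 4857 genes. Cd3e was 2.35-fold higher (log2 1.23), Cd3d 2.04-fold (log2 1.03) and Cd3g 1.83-fold (log2 0.87). By size 3 of 4 chains were higher, while 11.3% of all genes were higher and 11.7% lower, the largest shares of the consecutive comparisons. The count depended on the setting. It was 4 of 4 under quantile normalisation, where Cd3g had a log2 ratio of 1.05. It was 2 of 4 when scaled to the spiked controls, whose mean log2 ratio was 0.20, with Cd3d at 0.83, Cd3g at 0.67 and 33.9% of the genes called higher in place of 49.1%. It was 1 of 4 with the mean over probe sets, with Cd3d at 0.51 and Cd247 at 0.94. The chains' median was 1.13, against 0.01 over all genes. Both the source of the sorted cells and the stage differ here.

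**Figure D4:**
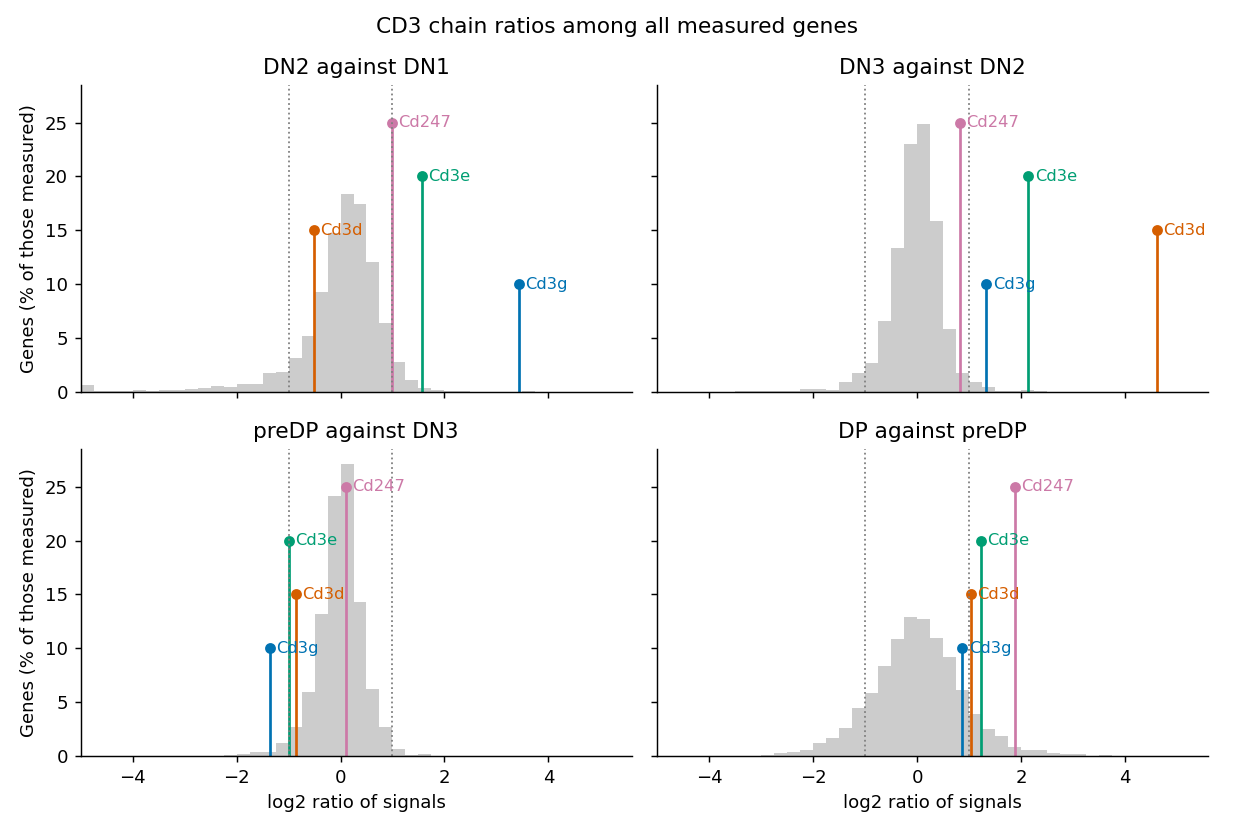
Log2 ratio of each chain (coloured stems, whose height has no meaning) over the distribution of all genes measured in the 4 consecutive comparisons (grey bars, % of genes per bin of 0.25; values beyond -5 and 5 are in the outer bins). Dotted lines mark 2-fold. Cd3g at 3.44 in DN2 against DN1 and Cd3d at 4.62 in DN3 against DN2 lie in the far tail, and in preDP against DN3 Cd247 at 0.10 lies near the centre.

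Comparisons across 2 stages show how the chains differ by DP and by preDP. In DP against DN3, Cd247 was 3.92-fold higher (log2 1.97, probe set SD 0.56), while Cd3e and Cd3d had log2 ratios of 0.23 and 0.18 and Cd3g one of -0.49, all 3 within the SD. Of the 4 chains, 1 was at least 2-fold higher, and 10.4% of all genes were. In preDP against DN2, Cd3d was 13.6-fold higher (log2 3.77, rank 4 of 4926 genes), Cd3e 2.21-fold and Cd247 1.89-fold, and Cd3g was 1.02-fold apart. Here 2 of 4 chains were higher by size, and 2.82% of all genes were (6.25% were lower). Scaled to the spiked controls 3 of 4 were, with Cd247 at a log2 ratio of 1.08. Both comparisons share arrays with the consecutive ones and add no independent data.

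The profiles of the chains can be set against each other by the root mean square difference of their log2 signals over the 5 arrays, after each is centred on its own mean. A value of 0 would mean the same course. Cd3g and Cd3e differed by 0.65, Cd3e and Cd247 by 0.67, and Cd3d and Cd3e by 0.98. The head-to-head neighbours Cd3g and Cd3d differed most, by 1.52. Cd3g and Cd247 differed by 1.12 and Cd3d and Cd247 by 1.28. Among 5442 other genes, Cd3e was number 3 in likeness to Cd3g, and Cd3d number 1176.

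Other genes had courses close to those of the chains. Nearest to Cd3g was Rgcc, a regulator of the cell cycle, at 0.45, then Thy1, a surface glycoprotein of T cells, at 0.47, Cd3e, and Gfi1, a transcriptional repressor, at 0.85. Thy1 read 1517, 9968, 21287, 20059 and 26069, so its preDP signal was near that of DN3. Nearest to Cd3d were Ptcra at 0.75, the beta variable segment Trbv13-2 at 0.81, Fbln2, an extracellular matrix gene, at 0.84 and Ldhb, a lactate dehydrogenase subunit, at 0.85. Nearest to Cd3e were Rgcc at 0.45, Thy1 at 0.49, Fbln2 at 0.53 and the transcription factor gene Ets1 at 0.55. Nearest to Cd247 were the clock gene Arntl at 0.21, the phosphatase gene Acp5 at 0.25, Ilvbl at 0.32 and the recombinase gene Rag2 at 0.33. Rag2 had 91.7, 234, 486, 340 and 2491 over the same arrays, most of it in DP. Some of these values rest on signals set to the floor, which have no order among themselves. These are the DN1 and DN2 signals of Ptcra and Fbln2 and the DN1 signals of Trbv13-2, Rag2 and Arntl. With 5 arrays many genes can share a course, and likeness says nothing of shared control.

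Genes beside the chains on the chromosomes, taken by order in the RefSeq gene table, varied less than the chains. Of the 8 nearest genes with a probe set around the chromosome 9 cluster, 7 were above the floor on some array, and the median range of these 7 over the 5 arrays was 1.01 on the log2 scale. The chains themselves ranged over 4.77 (Cd3g), 4.80 (Cd3d) and 3.94 (Cd3e), and the median over the 5443 genes above the floor on any array was 0.95. Mpzl2, the nearest on the far side of Cd3e, was under the floor on all arrays. Il10ra, a cytokine receptor gene, had the widest range of these 8, at 2.47, with its highest signal in DN1, 722, and under the floor in preDP and DP. Kmt2a, a histone methyltransferase gene, was highest in DN2 at 1831. Around Cd247, which ranged over 3.77, the median range was 0.87 over the 7 of 8 neighbours above the floor on some array, and Creg1, the nearest before it, was highest in DN2, 498, and under the floor in DP, 20.6.

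Among the receptor's own chains, 5 of 22 listed symbols had a probe set, since the platform gives few T-cell receptor segments 1 symbol. Ptcra, whose product joins CD3 before the alpha chain is made, did not pass the floor in DN1 or DN2 (17.0 and 108) and read 3692, 1181 and 945 from DN3 on. DN3 exceeded DN2 at least 28.3-fold, at the step where the delta chain gene had 24.5-fold, and preDP was 3.13-fold under DN3. Unlike Cd3d, it had no higher signal in DP than in preDP. Trgv4 and Trgv1, variable segments of the gamma chain, were 13.3-fold and 6.09-fold higher in DN2 than in DN1, as Cd3g was 10.8-fold, while DP was at least 28.2-fold and 23.1-fold below preDP for these segments. Trav9d-3 was 8.72-fold higher in DP. Probes for such segments can also read related segments, which was not tested. Over the consecutive comparisons 3, 2, 1 and 1 of this list, Ptcra included, were at least 2-fold higher and 1, 0, 3 and 2 lower, of 4, 5, 5 and 5 measured. The shares of all genes were 4.75%, 2.02%, 1.14% and 11.3% higher and 8.56%, 3.94%, 2.42% and 11.7% lower, and the counts of the lists that follow stand beside the same shares.

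Of the proximal signalling genes, none of 12 measured was 2-fold apart in DN2 against DN1 (median log2 ratio -0.23). In DN3 against DN2, 2 of 12 were higher and 1 lower (median -0.12), in preDP against DN3 none of 13 higher and 1 lower (median 0.06), and in DP against preDP 5 of 14 higher and none lower (median 0.72). All genes had 2.02% higher and 3.94% lower at the DN3 step and 11.3% and 11.7% at the DP step. Zap70, the kinase that binds phosphorylated ITAMs, read 1368, 1025, 4644, 6928 and 13066 from DN1 to DP. DN3 exceeded DN2 by 4.53-fold, as it did for the chains, but the preDP signal of this gene was above that of DN3. Its relative Syk was highest in DN1 and lowest in preDP, with 3313, 2043, 1098, 763 and 974. Fyn, a kinase that phosphorylates ITAMs, had 2.10-fold less signal in DN3 than DN2, and Sh2d2a, an adaptor, 2.03-fold more. Tec, a kinase of the Tec family, had 2.93-fold less signal in preDP than DN3 and 4.86-fold more in DP than preDP. Txk, of the same family, was 11.5-fold higher in DP than in preDP, Prkcq, a protein kinase C gene, 3.48-fold and the adaptor gene Lcp2 3.09-fold. The adaptor gene Lat was between 243 and 410 on all arrays. Lck had no probe set with 1 symbol here.

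Coreceptors and accessory receptors had 2-fold differences in every consecutive comparison. In DN2 against DN1, 1 of 8 was higher, Thy1, and 3 were lower, Cd8a, Cd2 and Cd8b1 (median -0.40). In DN3 against DN2, 4 of 9 were higher and none lower (median 0.80), among them Cd28 and Ctla4, both at least 2.5-fold. In preDP 3 of 11 were higher and 1 lower (median 0.89), and Cd8b1 was 19.6-fold higher in the population where Cd3g was 2.56-fold lower. In DP against preDP, 9 of 10 were higher, against 11.3% of all genes (median 2.09), with Cd4 at least 39.1-fold and Cd5, a receptor that dampens T-cell receptor signals, 5.85-fold.

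Of the listed negative regulators of receptor signalling, 5 of 11 were higher and none lower in DP against preDP (median 0.99), where 11.3% of all genes were higher and 11.7% lower. Dgka, a diacylglycerol kinase gene, was 7.74-fold higher, and Laptm5, a lysosomal protein known to lower surface CD3 by directing Cd247 protein to degradation, 3.63-fold. Laptm5 read 15969, 7298, 6659, 4609 and 16753 in order. Pag1, a membrane adaptor that recruits the kinase Csk, had 2.13-fold less signal in preDP than DN3, 1 of 11 so, and its signals of 946, 1891, 3107, 1461 and 3250 from DN1 to DP were highest in DP and next highest in DN3, as those of Cd3d and Cd3e were.

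The other ITAM adaptors, which serve receptors of innate and B cells, were mostly a feature of DN1. Tyrobp read 8706 in DN1, 1362 in DN2 and less than the floor later. Cd79a (1691) and Fcer1g (253), whose product can take the place of the zeta chain, passed the floor in DN1 alone. In DN2 against DN1, 3 of 5 measured were lower and none higher (median -1.01). Cd79b, a chain of the B-cell receptor, stayed above the floor on all arrays, at 1667, 830, 1234, 305 and 1126 from DN1 to DP. Its preDP signal was 4.04-fold under DN3 and its DP signal 3.69-fold over preDP. Cd3g, Cd3d and Cd3e had the same turns at these steps, but unlike these chains Cd79b was highest in DN1.

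Transcription factors of the T lineage, a class that includes known regulators of the CD3 genes, were higher for 7 and lower for 4 of 21 measured in DN2 against DN1 (median 0.67). In DN3 against DN2, 6 of 22 were higher and 1 lower (median 0.17), in preDP against DN3 none of 21 higher and 4 lower (median 0.14), and in DP against preDP 6 of 20 higher and none lower (median 0.57). All genes had 4.75%, 2.02%, 1.14% and 11.3% higher and 8.56%, 3.94%, 2.42% and 11.7% lower in these comparisons. Among the 7 higher in DN2, Notch3 was 4.33-fold and Gfi1 3.39-fold higher. Among the 6 higher in DN3, Id3, an inhibitor of E proteins, was at least 6.33-fold higher. Lef1, a partner of the Wnt pathway, was 5.31-fold and Notch3 3.16-fold higher there. Lef1 and Id3 were not lower in preDP. Hes1, Notch3, Notch1 and Sox4 were lower in preDP, by 8.00-fold, 4.35-fold, 2.73-fold and 2.08-fold. Of the E protein genes themselves, Tcf3 was between 264 and 319 on all arrays, and Tcf12 had 1125, 2386, 3454, 3798 and 5714 from DN1 to DP. Ets1 had 133, 335, 759, 1168 and 2277, and Ets2 was 11.5-fold higher in DP than in preDP. Spi1, a myeloid regulator, was 6.26-fold lower in DN2 than in DN1 and at least 4.14-fold lower again in DN3.

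**Figure D5:**
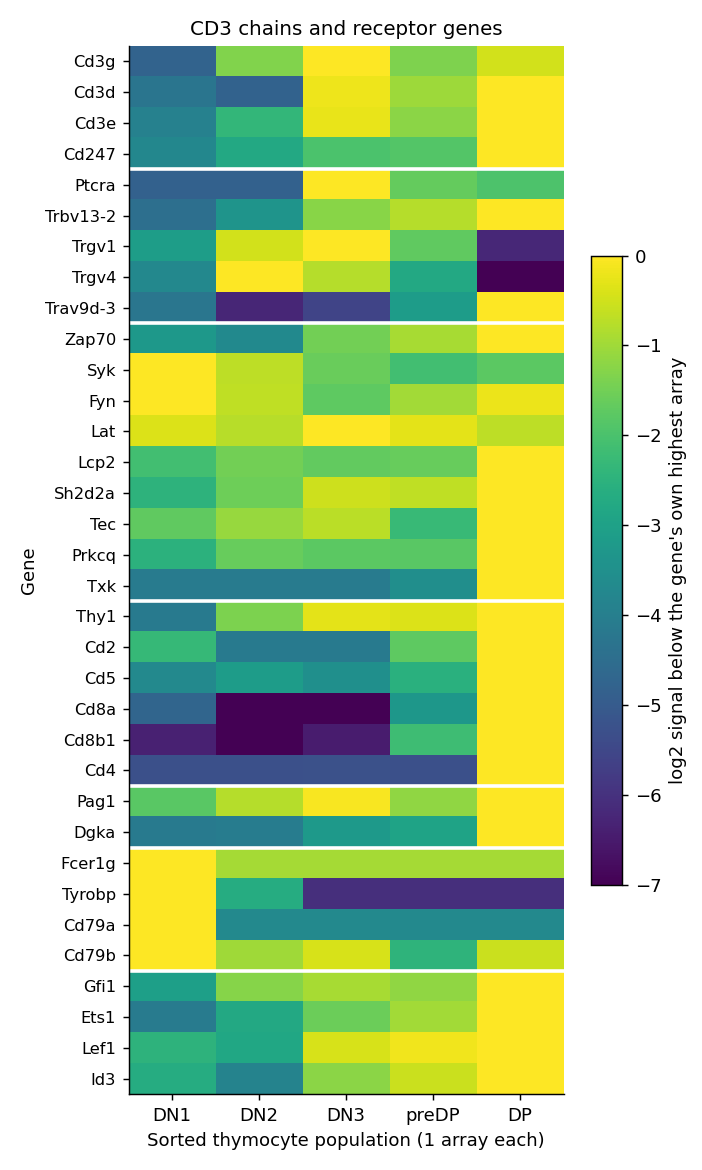
Log2 signal of each gene below its own highest array, from 0 (its highest) to -7, with lower values in the colour of -7, for the CD3 chains, T-cell receptor segments, signalling genes, accessory receptors, negative regulators, other ITAM adaptors and transcription factors (blocks from top to bottom), with signals under 130.4 set to that floor. Cd3d and Ptcra are both dark in DN1 and DN2 and bright in DN3, and the step from DN3 to preDP is darker for Cd3g, Cd3d, Cd3e and Ptcra but not for Zap70.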

How the data were processed

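RNA was made into biotin-labelled cRNA and hybridised, per the labels' protocols. The authors deposited 1 linear intensity per probe set and array; the submitters' processing notes name MAS5 in Affymetrix Expression Console 1.0. Settings and detection calls are not used here. Scaling each array to 1 mean hides differences in total mRNA per cell.

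Of 12488 probe sets, 66 are controls and 10833 others had 1 gene symbol in the platform's annotation, 10817 of them matched to RefSeq's GRCm38.p6 gene table by identifier with no symbol altered. Those with several symbols or none were left out. The array values carry no genome build, and coordinates are those of RefSeq's promoter table, which held all 4 chains. Signals under the floor were set to it before log2, and a gene was read by its probe set with the highest mean. Where the lower value of a fold did not pass the floor, the fold was written "at least". Genes above the floor on either array were counted as 2-fold apart or not. With 1 array per population no test was run, no replicates could be compared, and precision is limited by how few arrays there are. The counting was tested on simulated data, with changes larger than 2-fold put into genes far above the floor. That does not cover steps near 2-fold or signals nearer the floor, such as those of Cd247 and Cd3d in DN1 and DN2. The tools were Python 3.11.15, pandas 2.3.3 and numpy 2.4.6.

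Named genes are the 4 chains, the 4 genes most like each, up to 4 list members with the largest 2-fold or greater difference in each comparison, chosen neighbours, sort markers and a few partners such as Zap70, Syk and Ptcra. Lat, Tcf3, Tcf12, Pag1 in DN2 and DP, and values of named genes on further arrays were chosen after their values were seen, as were the motifs searched. Members and lists were chosen with earlier results of these data known. Alternatives were quantile normalisation, 2 scalings to an equal median, scaling to the spiked controls, floors at percentiles 35 and 65, a floor without DN1, an added constant of 100, the mean over probe sets, the chains' other probe sets and leaving out shared probe sets.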

Additional observations from a re-analysis of the deposited data

How the results depend on the processing

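With 1 array per population, array error and variation between sorts or mice cannot be measured. DN1 differs from the rest in its marker signals and DP in its source. No paired analysis was possible because each population has 1 array and the labels give no replicate numbers. The log2 ratios of Cd3g and Cd3e moved by less than the probe set SD under every alternative run. No chain ratio of 2-fold or more changed direction under any alternative run; with the second probe sets of Cd3d and Cd247, under the floor on every array, every ratio of those genes is 0 by construction. The mean over probe sets averages these in, and gave log2 ratios of 2.31 for Cd3d in DN3 against DN2 and 1.88 in preDP against DN2, 0.94 for Cd247 between DP and preDP and 0.99 between DP and DN3, DN3 (number 3 in order) as the first population of Cd247 at 50% of its highest signal, and no first 2-fold step. With the floor at percentile 65 (339), Cd247 in DN2 against DN1 was 0.37, Cd3d was 4.08 in DN3 against DN2 and 3.23 in preDP against DN2, and the first population above the floor was DN3 for Cd3d (number 3 in order) and DN2 for Cd247 (number 2). With 100 added in place of the floor, Cd3d in DN3 against DN2 was 4.13. The first 2-fold step of Cd247 was DN2 (number 2) under quantile normalisation, with arrays scaled to an equal median and when scaled to the spiked controls, an alternative added after seeing the data. At 25% of the highest signal, Cd3g came in DN2 (number 2) and Cd247 in DN3 (number 3), and without DP, Cd247 reached 50% in DN2 (number 2).

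Counts over all genes moved more. In DN2 against DN1, 245 genes were higher and 441 lower, or 35.7% higher. With an equal median over all probe sets 570 were higher and 339 lower (62.7%) and the median of all genes was 0.39 in place of 0.13, and with an equal median over those above the floor, added after seeing the data, 144 and 519 (21.7%) and -0.02. Cd3g was 3.70 and Cd247 1.25 under the first. With 100 added, 157 were higher. The floor at percentile 35 gave 379 higher and 685 lower for DN2 over DN1, 209 and 317 for DN3 over DN2, 151 and 256 for preDP over DN3, and 257 and 499 for preDP over DN2. The floor at percentile 65 gave 262 lower for DN2 over DN1, 51 and 101 for DN3 over DN2, 30 and 63 for preDP over DN3, 86 and 179 for preDP over DN2, and 350 lower for DP over DN3. Scaling to the spiked controls gave 455 higher for DN2 over DN1, 60 for DN3 over DN2, 302 higher and 54 lower for preDP over DN3 and 228 higher for preDP over DN2, and all-gene medians of 0.31, -0.21, 0.38 and -0.17 over the consecutive comparisons. Equal medians also moved the DP against preDP median of all genes to 0.10. The median of the other ITAM adaptors in DN3 against DN2, -1.41 over 2 genes, was 0.57 with the floor at percentile 35, and that of natural killer markers, 1.18 over 2 genes, was -0.70 without shared probe sets.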

Other observations

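The course of Cd3g, Cd3d and Cd3e from DN2 on, higher in DN3, lower in preDP and higher again in DP, was also looked for among all genes. The pattern and the size of 1.5-fold per step were taken from the chains' own values, so the chains' presence is no finding. With each step at least 1.5-fold, 32 of 5443 genes (0.588%), the 3 chains included, had this course. The count was 38 under quantile normalisation and 42 with arrays scaled to an equal median. At 2-fold per step it was 5 genes and no chain. Among the 32, Rag1, a subunit of the recombinase, read 388, 5816, 3347 and 17836 from DN2 to DP. Btg2, an inhibitor of proliferation, had 1476, 4057, 2347 and 12533 over the same arrays, Mxd4, an antagonist of Myc, 1610, 2864, 1337 and 8666, and Socs3, an inhibitor of cytokine signals, 226, 536, 187 and 534. Itpr2, a calcium channel of the endoplasmic reticulum, had 3279, 7244, 4526 and 7515. Slfn2, a gene tied to T-cell quiescence, had 323, 845, 525 and 4399. The mean signal of the spiked controls had the same turns in smaller steps, at 8322, 9902, 7919 and 8788 from DN2 to DP. Scaled to these controls, 9 genes had the course at 1.5-fold, Cd3g and Cd3e among them and Cd3d not. The genes named here were chosen from the 32 after their values were seen.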
